A study of Mus musculus with 8 samples.

Results

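The GALNT genes encode the polypeptide N-acetylgalactosaminyltransferases, the Golgi enzymes that place the first sugar of a mucin-type O-glycan on a protein. A total of 10 of them (Galnt1, Galnt2, Galnt3, Galnt4, Galnt7, Galnt10, Galnt11, Galnt12, Galnt14 and Galnt18) were taken by symbol from a table of read counts per gene, among the 17326 of 22533 gene lines that held a count for all 8 libraries. All 10 passed the filter on low counts, which left 16477 genes for testing.

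Polyadenylated RNA was sequenced from kidney cells of mice with 2 intact copies of Emcn (EMCN+/+, wild type) and of mice homozygous for its loss (EMCN-/-, knockout). The cells were sorted by flow cytometry into glomerular endothelium, the cells that line the filtering capillaries, and podocytes, the epithelial cells that wrap those capillaries. Each of the 4 groups had 2 libraries, numbered 2 and 3: wild-type endothelium, knockout endothelium, wild-type podocytes and knockout podocytes. The labels gave no strain, age, sex, treatment, sorting marker or construction of the knockout allele, and did not say whether libraries came from separate animals, so the p-values below measure only the spread between these samples.

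Mucin-type O-glycosylation starts when a GALNT enzyme moves N-acetylgalactosamine from its UDP-linked donor to a serine or threonine. Galactose and sialic acid are then added, and the finished chains give sialomucins their dense negative charge. Emcn encodes endomucin, an endothelial sialomucin, and Podxl encodes podocalyxin, the main sialomucin of the podocyte surface, which endothelial cells also make. The isoenzymes share a fold and differ in the sites they prefer. Some act on bare peptide (Galnt1, Galnt2, Galnt3, Galnt11 and Galnt14 encode such enzymes), and others prefer peptide that already carries sugars (Galnt7 and Galnt10, and in part Galnt4 and Galnt12). Galnt18 belongs to a branch of the family with little or no measured activity on simple peptides.

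RefSeq promoter windows on GRCm38.p6 were matched for 5 of the 10 genes (Galnt3, Galnt7, Galnt10, Galnt11 and Galnt14). Shown here are the 250 bases before a transcript start for the pair of genes that stood highest in podocytes relative to endothelium, Galnt10 (chr11:57645192-57645441, plus strand) and Galnt14 (chr17:73710452-73710701, minus strand), and for Galnt7 (chr8:57653056-57653305, minus strand), which was higher in endothelium. They are printed 5′ to 3′ on the gene's strand, with GGGCGG or its reverse complement, the letters of a GC box, in capitals.
Galnt10: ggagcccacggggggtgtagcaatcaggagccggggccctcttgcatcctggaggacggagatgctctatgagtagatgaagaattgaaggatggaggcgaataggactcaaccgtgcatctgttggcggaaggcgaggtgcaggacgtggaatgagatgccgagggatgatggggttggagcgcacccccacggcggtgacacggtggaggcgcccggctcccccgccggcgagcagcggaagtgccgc
Galnt14: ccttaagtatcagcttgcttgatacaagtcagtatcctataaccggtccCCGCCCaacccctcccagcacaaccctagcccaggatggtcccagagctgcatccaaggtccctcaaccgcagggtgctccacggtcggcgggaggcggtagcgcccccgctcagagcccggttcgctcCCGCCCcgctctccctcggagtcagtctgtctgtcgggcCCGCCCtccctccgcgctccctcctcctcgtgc
Galnt7: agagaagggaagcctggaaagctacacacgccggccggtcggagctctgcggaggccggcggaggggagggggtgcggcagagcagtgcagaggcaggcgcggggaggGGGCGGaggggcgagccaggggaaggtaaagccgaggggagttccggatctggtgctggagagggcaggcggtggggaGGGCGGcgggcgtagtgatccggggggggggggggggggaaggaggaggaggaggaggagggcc
The Galnt14 window lay inside the RefSeq span of its gene (chr17:73493207-73712138), while the Galnt7 and Galnt10 windows bordered theirs. The letters GGGCGG, searched on both strands, occurred 3 times in the Galnt14 window, 2 times in that of Galnt7 and 0 times in that of Galnt10. They occurred at least once in 32.7% of the 32851 windows of that length. TATAAA, searched on both strands, was in none of the 3 windows and in 12.4% of all windows. CpG dinucleotides numbered 20 in the Galnt10 window, 19 in that of Galnt14 and 19 in that of Galnt7, against a median of 6 over all windows. Among the other genes that were higher in podocytes, Galnt3 held the letters 3 times, and Galnt11 held them 2 times in 1 of its 2 windows and 0 times in the other. Galnt10 was thus the 1 of those 4 genes with no match, and Galnt7, which was higher in endothelium, held them as well. A match of letters is a description and was not tested against the levels.

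The complete lines summed to 10478956 to 17386042 counts per library, and levels are given as CPM (the count divided by a library size that edgeR's TMM method adjusts for composition). Emcn, the targeted gene, was at 1972 and 1828 CPM in wild-type endothelium and 173 and 179 CPM in knockout endothelium, and at 74.1 and 35.9 CPM in wild-type podocytes and 5.59 and 4.94 CPM in knockout podocytes, so all 4 knockout libraries lay below the wild-type libraries of their cell type. Of the endothelial markers, 9 of 10 were on complete lines, and their summed level was 7964 to 9334 CPM in the endothelial libraries and 365 to 568 CPM in the podocyte libraries. Of the podocyte markers, 7 of 10 were on complete lines (the genes of nephrin and podocin were not analysed here), and their sum was 9129 to 19646 CPM in podocyte and 1670 to 2978 CPM in endothelial libraries. Markers of the proximal tubule (6 of 10 on complete lines, summed to 223 to 2435 CPM) and of the distal and collecting tubule (5 of 8, 2449 to 14495 CPM) were present in all 8 libraries.

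Averaged over both genotypes, 6 of the 10 GALNT genes passed an adjusted p of 0.05 between endothelium and podocytes in edgeR's quasi-likelihood test, against 18.3% of all 16477 genes. Galnt1, Galnt2, Galnt4 and Galnt12 did not pass (edgeR adjusted p = 0.371, 0.103, 0.318 and 0.419). Galnt18 and Galnt7 were higher in endothelium (2 of 10, against 7.19% of all genes), and Galnt10, Galnt14, Galnt3 and Galnt11 were higher in podocytes (4 of 10, against 11.1%). The median log2 fold change of endothelium over podocytes was -0.64 over the 10 genes and 0.00 over all genes. The libraries of the cell types did not overlap at all for Galnt18, Galnt7, Galnt10 and Galnt14, which is 4 of 10 genes where 21.9% of all genes did not overlap. In sorted bulk RNA, fewer cells of a type and less RNA per cell cannot be told apart. Markers of mural and mesangial cells lay the same way as the podocyte-high genes: of the 5 of 8 on complete lines, 5 were lower in endothelium (median log2 change -1.22) and 2 of them passed in edgeR, Tagln at 14.4-fold and Ren1 at 27.5-fold (adjusted p = 1.14e-05 and 0.00951). Tagln was the 1 of the 5 whose cell types did not overlap. Ren1 overlapped, at 1.81 and 104 CPM in wild-type podocytes and 4.82 and 6.91 CPM in knockout endothelium. Their summed level was 266 to 601 CPM in endothelial and 408 to 1115 CPM in podocyte libraries. Of the 3 of 8 immune markers on complete lines, the macrophage receptor gene Csf1r was 9.16-fold lower in endothelium (edgeR adjusted p = 5.51e-06), while Lyz2 was higher there. The part of these cells in the GALNT differences was not tested.

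**Figure D1:**
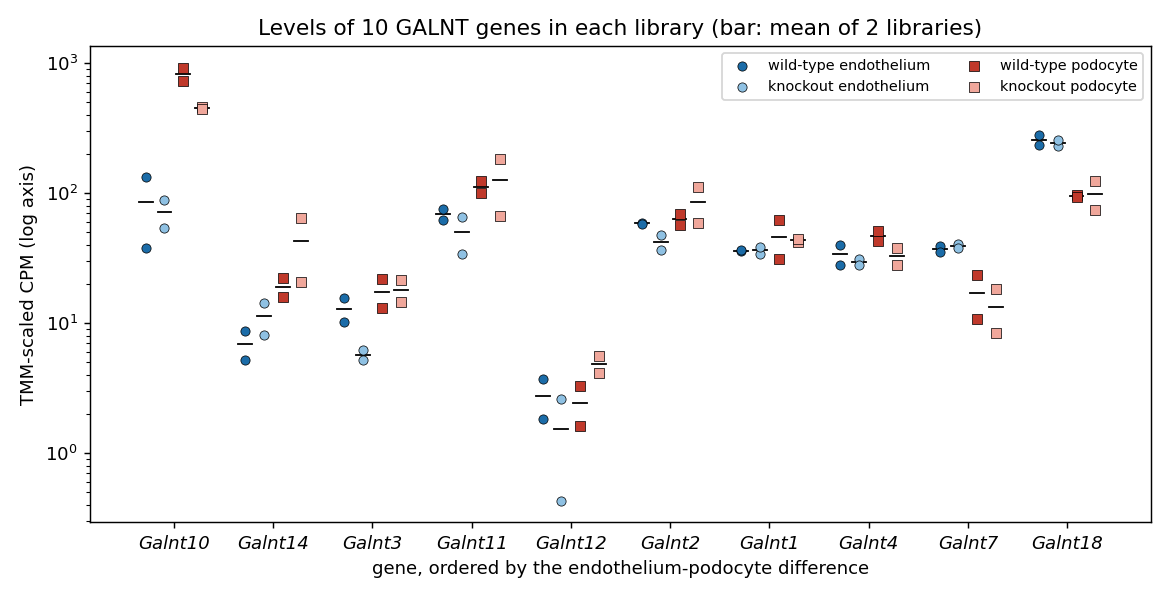
Level of each of the 10 GALNT genes in the 8 libraries, as TMM-scaled CPM on a log axis. Circles are endothelial and squares podocyte libraries, dark colours are wild type and light colours knockout, and bars are means of 2 libraries. Galnt10 is the highest of the 10 in all 4 podocyte libraries and Galnt18 the highest in all 4 endothelial libraries.

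Galnt10 (Entrez 171212, chr11:57645442-57787514), which encodes an enzyme that adds further sugars to peptides already glycosylated, showed the widest difference of the 10. Its level was 925.5 and 725 CPM in wild-type podocytes and 463 and 441.6 CPM in knockout podocytes. It was 132 and 37.8 CPM in wild-type endothelium and 87.8 and 54.3 CPM in knockout endothelium. All 4 podocyte libraries lay above all 4 endothelial ones, and the 2 wild-type endothelial libraries differed from each other by 3.50 times. Averaged over genotypes it was 7.86-fold lower in endothelium, a log2 change of -2.98 (SE 0.36, edgeR adjusted p = 0.000172, lower in 4 of 4 endothelial libraries). Without wild-type endothelium 2 the average was -3.56. The change was -3.28 in wild type (SE 0.51, edgeR adjusted p = 0.00198), where it was -4.45 without wild-type endothelium 2 and -2.65 without wild-type endothelium 3, and -2.67 in knockout (SE 0.50, edgeR adjusted p = 0.00619).

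Galnt14 (Entrez 71685, chr17:73493207-73712138), whose enzyme is known for modifying death receptors, was low in both cell types. It was at 5.17 and 8.69 CPM in wild-type endothelium and 8.11 and 14.4 CPM in knockout endothelium, against 15.9 and 22.2 CPM in wild-type podocytes and 64.2 and 20.9 CPM in knockout podocytes. The lowest podocyte library lay above the highest endothelial library, and knockout podocyte 2 stood at 3.08 times knockout podocyte 3. The average change was -1.69 on the log2 scale (SE 0.37, edgeR adjusted p = 0.00834), and -1.18 without knockout podocyte 2 (edgeR adjusted p = 0.0275). In knockout mice alone the change was -1.92 (edgeR adjusted p = 0.0397), and without knockout podocyte 2 it was -0.90 (edgeR adjusted p = 0.399). That call was also lost on leaving out either knockout endothelial library (replicate 2, -1.57, edgeR adjusted p = 0.234; replicate 3, -2.40, edgeR adjusted p = 0.0594) or either wild-type podocyte library (replicate 2, edgeR adjusted p = 0.0649; replicate 3, edgeR adjusted p = 0.0604), and under scaling by library size only (edgeR adjusted p = 0.0826), with a mean of at least 5 CPM (0.0648) and in a fit of the 4 knockout libraries (0.0840). Without knockout podocyte 3 it was -2.52 (edgeR adjusted p = 0.00449). In wild type alone it was -1.46 (edgeR adjusted p = 0.134), which passed without knockout podocyte 2 (0.0485) or 3 (0.0360).

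Galnt3 (Entrez 14425, chr2:66082766-66125056) encodes the enzyme that protects the phosphate hormone FGF23 from cleavage. It was at 10.1 and 15.6 CPM in wild-type endothelium and 5.22 and 6.19 CPM in knockout endothelium. Podocytes held 13.0 and 21.7 CPM in wild type and 21.6 and 14.6 CPM in knockout. The cell types overlapped in wild type and were apart in knockout. The average change was -1.05 on the log2 scale (SE 0.27, edgeR adjusted p = 0.0221), with -1.67 in knockout (SE 0.39, edgeR adjusted p = 0.0221) and -0.43 in wild type (edgeR adjusted p = 0.635). The average call was lost without wild-type endothelium 2 (edgeR adjusted p = 0.0772), knockout endothelium 2 (0.0785), wild-type podocyte 3 (0.0834) or knockout podocyte 2 (0.0766), and under scaling by library size only (0.0565). The knockout call was lost without knockout endothelium 2 (edgeR adjusted p = 0.145), knockout endothelium 3 (0.0811) or knockout podocyte 2 (0.134), and under scaling by library size only (0.0658).

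Galnt11 (Entrez 231050, chr5:25222872-25265918), known in the kidney for glycosylating megalin of the proximal tubule, was at 75.9 and 61.6 CPM in wild-type endothelium and 65.9 and 34.2 CPM in knockout endothelium. It was at 100.5 and 123.9 CPM in wild-type podocytes and at 184.1 and 66.7 CPM in knockout podocytes. Knockout podocyte 3 lay below the highest endothelial library, so the cell types overlapped. The average change of -1.02 (SE 0.31) only just passed (edgeR adjusted p = 0.0445). It did not pass without wild-type endothelium 2 (edgeR adjusted p = 0.0790), wild-type endothelium 3 (0.122), knockout endothelium 3 (0.123), wild-type podocyte 2 (0.0945), wild-type podocyte 3 (0.117) or knockout podocyte 2 (0.165, with a change of -0.56). It also did not pass under scaling by library size only (-0.83, edgeR adjusted p = 0.158) or with a mean of at least 5 CPM (-0.89, edgeR adjusted p = 0.0840).

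Galnt18 (Entrez 233733, chr7:111471656-111780067), of the weakly active branch, was the leading gene of the family in endothelium. Its wild-type endothelial libraries held 233.3 and 280.2 CPM and its knockout ones 232.1 and 258.3 CPM. Podocytes held 96.1 and 94.0 CPM in wild type and 123.6 and 73.7 CPM in knockout. The 4 endothelial libraries lay close together and above every podocyte library. The average level was 2.59-fold higher in endothelium, a log2 change of 1.37 (SE 0.19, edgeR adjusted p = 0.000482). It was 1.43 in wild type (SE 0.27, edgeR adjusted p = 0.00617) and 1.31 in knockout (SE 0.27, edgeR adjusted p = 0.0104). The wild-type call was lost without wild-type podocyte 2 (edgeR adjusted p = 0.0831) or wild-type podocyte 3 (0.0641), and the knockout call without knockout endothelium 3 (0.05004), where 1 library stood for a group.

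Galnt7 (Entrez 108150, chr8:57523825-57653055), like Galnt10 a gene for an enzyme that prefers glycosylated peptide, differed in the other direction. Endothelial libraries held 39.4 and 35.3 CPM (wild type) and 40.9 and 37.8 CPM (knockout). It was at 10.8 and 23.4 CPM in wild-type and 18.4 and 8.33 CPM in knockout podocytes. The endothelial libraries were within a narrow range above all podocyte libraries, whose 2 members differed 2.18 times in wild type and 2.21 times in knockout. The average change was 1.34 (SE 0.30, edgeR adjusted p = 0.00954), with 1.56 in knockout (edgeR adjusted p = 0.0419) and 1.13 in wild type (edgeR adjusted p = 0.153). With 1 library left out, the wild-type change was 0.68 to 1.79. In wild type it passed in a fit of the 4 wild-type libraries alone (1.23, edgeR adjusted p = 0.0360) and in DESeq2 (1.20, DESeq2 adjusted p = 0.0467). The knockout call was lost without wild-type endothelium 2 (edgeR adjusted p = 0.0566), wild-type endothelium 3 (0.0571), knockout endothelium 2 (0.141), knockout endothelium 3 (0.0967) or knockout podocyte 3 (0.151), and in a fit of the 4 knockout libraries (0.0562). Without knockout podocyte 2 it was 2.23 (edgeR adjusted p = 0.0168). Galnt7 overlaps AW046200, which is also on a complete line, and the use of strand in counting is not given in the sources used here, so reads of the 2 genes may be mixed.

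The other 4 genes did not pass between cell types. Galnt2 (Entrez 108148, chr8:124231394-124345722), whose enzyme acts on plasma lipoprotein proteins, was at 59.4 and 58.3 CPM in endothelium of wild-type mice and 47.9 and 36.2 CPM in that of knockout mice, and at 69.5 and 57.1 CPM in wild-type and 110.8 and 58.7 CPM in knockout podocytes. The groups overlapped in wild type, and its average change was -0.56 (95% interval -1.03 to -0.08, edgeR adjusted p = 0.103). Galnt2 did pass with the replicate number as a block (edgeR adjusted p = 0.0447), and its change was -0.75 without knockout podocyte 3. Galnt1 (Entrez 14423, on chromosome 18), a broadly expressed initiating enzyme, was at 34.2 to 38.2 CPM in the 4 endothelial libraries and at 31.1 to 61.6 CPM in the 4 podocyte libraries. The endothelial libraries all lay inside the podocyte range, and the change was -0.32 (95% interval -0.79 to 0.16, edgeR adjusted p = 0.371).

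Galnt4 (Entrez 14426, chr10:99108135-99113247), whose enzyme is known for modifying the selectin ligand PSGL-1, overlaps Poc1b, also on a complete line, so reads of the 2 genes may be mixed in the same way. It was at 27.9 to 39.9 CPM in endothelium and 28.1 to 51.3 CPM in podocytes, with a change of -0.31 (95% interval -0.73 to 0.11, edgeR adjusted p = 0.318). Galnt12 (Entrez 230145, chr4:47091894-47123058), best known from the colon, had only 5 to 89 counts per library, which is 0.43 to 5.53 CPM. Its change of -0.73 had a wide interval of -1.93 to 0.47 (edgeR adjusted p = 0.419), so no direction could be given. The 2 libraries of a group differed 1.34 to 6.07 times. With 1 library left out, the change was -1.64 to -0.36.

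Within each genotype, 2 of the 10 passed between wild-type endothelium and wild-type podocytes (Galnt10 and Galnt18, against 8.99% of all genes). In knockout mice 5 passed (Galnt10, Galnt18, Galnt3, Galnt14 and Galnt7, against 10.4%). The number in knockout was 3 under scaling by library size only (7.39% of all genes) and 3 in a fit of the 4 knockout libraries alone (8.06%). It was 7 in DESeq2 (13.7% of all genes), which added Galnt2 (DESeq2 adjusted p = 0.0352) and Galnt11 (0.0182). With the replicate number as a block it was also 7 (13.6% of all genes). It was 2 without knockout endothelium 2 (5.68% of all genes), 1 without knockout endothelium 3 (6.56%), 3 without knockout podocyte 2 (6.31%) and 6 without knockout podocyte 3 (10.6%). In wild type it was 1 without wild-type podocyte 2 (4.5% of all genes) and 1 without wild-type podocyte 3 (5.97%). It was 3 in DESeq2 (11%) and in a fit of the 4 wild-type libraries alone (11.4%), which each added Galnt7. It was also 3 without knockout podocyte 2 (9.68%) or knockout podocyte 3 (9.79%), where Galnt14 was added (edgeR adjusted p = 0.0485 and 0.0360). The plot of fold changes shows intervals of wild type and knockout that overlap for all 10 genes.

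**Figure D2:**
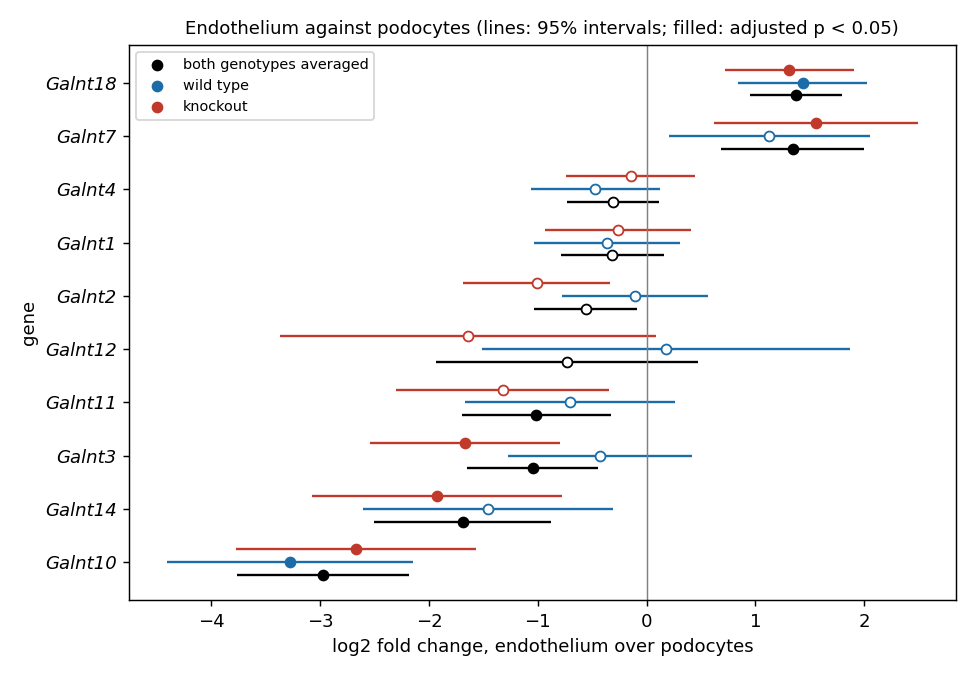
Log2 fold change of endothelium over podocytes for each gene, averaged over genotypes (black), in wild type (blue) and in knockout (red), with 95% intervals and filled points at an adjusted p under 0.05. Galnt18 and Galnt7 lie right of 0 and Galnt10 lies farthest left, at -2.98 on average.

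Levels of different genes were compared per kilobase (kb) of transcript. In wild-type endothelium Galnt18 led with 100.6 ± 13.0 CPM per kb (SD, n = 2), followed by Galnt11 with 27.8 ± 4.10 and Galnt10 with 26.3 ± 20.6. Galnt18 was separate from the next gene. The libraries of Galnt10 (40.9 and 11.7 CPM per kb) overlapped those of Galnt11 (30.7 and 24.9) and of the following Galnt2 (14.3 ± 0.20), while Galnt11 and Galnt2 were apart from each other. Below these came Galnt7 (9.68 ± 0.75), Galnt1 (9.25 ± 0.14), Galnt4 (6.66 ± 1.67), Galnt3 (3.31 ± 1.01), Galnt14 (2.87 ± 1.03) and Galnt12 (1.26 ± 0.61), all in CPM per kb (SD, n = 2), where Galnt7 and Galnt1 overlapped and so did Galnt3 and Galnt14. In knockout endothelium Galnt18 again led with 96.1 ± 7.26 CPM per kb (SD, n = 2), and Galnt10 (22.0 ± 7.35) and Galnt11 (20.3 ± 9.07) overlapped behind it. Galnt2, Galnt7 and Galnt1 followed at 10.2, 10.2 and 9.31 CPM per kb on average, each overlapping the next, then Galnt4 at 5.83 and Galnt14 at 4.65, which overlapped, Galnt3 at 1.47 and Galnt12 at 0.70.

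In wild-type podocytes Galnt10 led with 255.5 ± 43.9 CPM per kb (SD, n = 2), separate from Galnt11 with 45.4 ± 6.70, which was separate from Galnt18 with 37.2 ± 0.58. Galnt2 (15.4 ± 2.13), Galnt1 (11.9 ± 5.56), Galnt4 (9.24 ± 1.20) and Galnt14 (7.90 ± 1.83) overlapped with their neighbours, and Galnt3 (4.46 ± 1.59) and Galnt7 (4.43 ± 2.32) overlapped above Galnt12 (1.12 ± 0.53). In knockout podocytes Galnt10 led with 140 ± 4.69 CPM per kb (SD, n = 2), and Galnt11 (50.7 ± 33.6) and Galnt18 (38.7 ± 13.8) overlapped. Galnt2, Galnt14 and Galnt1 followed at 20.6, 17.6 and 11.2 CPM per kb on average, each overlapping the next, then Galnt4, Galnt3, Galnt7 and Galnt12 at 6.45, 4.66, 3.46 and 2.21, again each overlapping the next. Of the 9 neighbouring pairs in each order, 5 were separate in each of the first 3 groups and 3 in knockout podocytes. Galnt12 was lowest in all 4 groups, and a fall or rise of 1 place between overlapping neighbours is not a difference between groups.

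Of the summed CPM per kb of the 10 genes, Galnt18 made up 43.5% and 56.6% in the wild-type and 48.4% and 58.3% in the knockout endothelial libraries. In podocytes its share was 8.94% and 10.1% in wild type and 13.8% and 12.0% in knockout. Galnt10 made up 68.0% and 61.7% in wild-type podocytes, 40.8% and 56.9% in knockout podocytes, and 6.03% to 19.4% in endothelium. The leading enzyme gene thus took from 40.8% to 68.0% of the pool in each library, and it was a different gene in each cell type. These shares rest on the median transcript length, which for Galnt10 was 3230 bases against 4715 for its longest transcript. Shares with the longest length are not given here. The pool itself was 174 to 210 CPM per kb in the endothelial and 240 to 421 CPM per kb in the podocyte libraries.

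**Figure D3:**
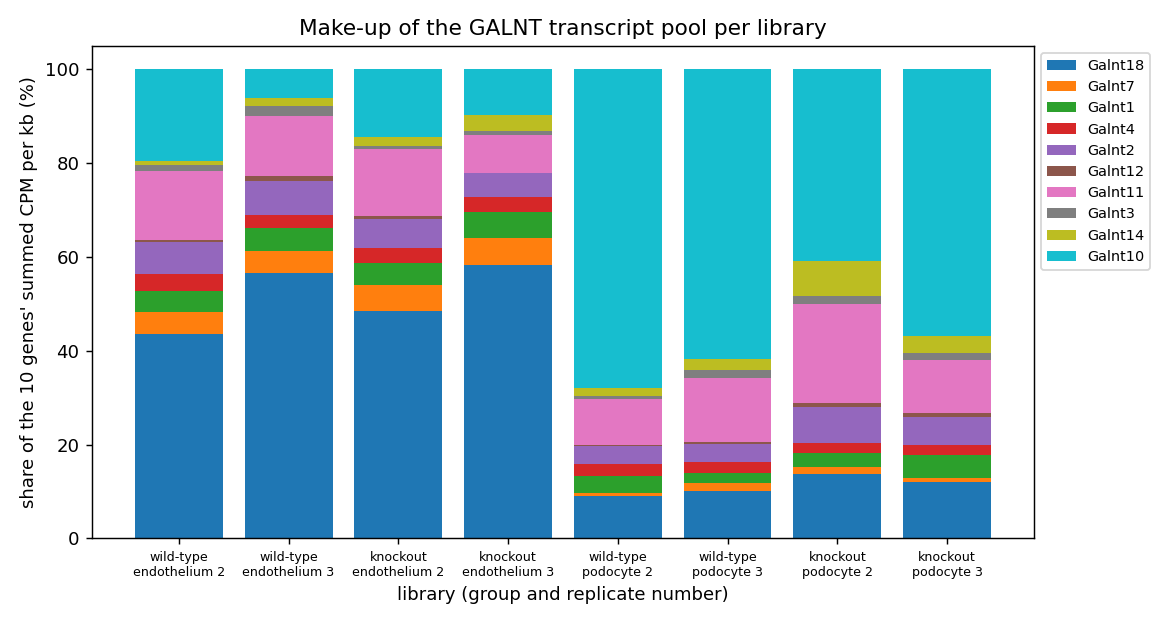
Share of each gene in the summed CPM per kb of the 10 GALNT genes, in percent, for each of the 8 libraries. Galnt18 (bottom segment) takes 43.5% to 58.3% of the pool in endothelium, and Galnt10 (top segment) takes 40.8% to 68.0% in podocytes.

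The endothelial libraries held some podocyte marker RNA, and Galnt10 moved with it. Per 1000 CPM of summed podocyte markers, Galnt10 was at 47.1 and 56.5 CPM in wild-type podocytes and 50.7 and 38.7 CPM in knockout podocytes. In endothelium the same ratio was 44.4 and 22.6 for wild type and 44.0 and 29.1 for knockout. The 8 ratios thus spanned 22.6 to 56.5, while the Galnt10 level itself spanned 37.8 to 925.5 CPM. Wild-type endothelium 2, the endothelial library with the most podocyte marker RNA (2978 CPM), also had the most Galnt10. The part of that RNA in the endothelial Galnt10 level was not tested. Per 1000 CPM of summed endothelial markers, Galnt18 was at 24.9 to 35.2 CPM in the endothelial libraries and 169 to 338 CPM in the podocyte libraries. For Galnt7 this ratio was likewise higher in every podocyte library than in every endothelial one. The marker sum was 7964 to 9334 CPM in endothelial and 365 to 568 CPM in podocyte libraries. That gap was wider than the gap of either gene, so the order of the ratios follows from it. The part of endothelial RNA in the podocyte levels of Galnt18 and Galnt7 was not tested.

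Galnt14 and the markers of the proximal tubule were both highest in knockout podocyte 2. The sum of the markers was 2435 CPM in knockout podocyte 2, against 459 to 893 CPM in the other podocyte libraries and 223 to 644 CPM in the endothelial ones, and all 6 markers on complete lines had counts in every library. Galnt14, Galnt11, Galnt2 and Galnt12 all had their highest level in knockout podocyte 2. Per 1000 CPM of summed proximal tubule markers, Galnt14 was at 12.6 to 36.9 CPM over the 8 libraries, with 26.4 in knockout podocyte 2. The lowest and the highest ratio were those of knockout endothelium, where replicate 2 had 644 CPM of markers and 8.11 CPM of Galnt14 and replicate 3 had 390 and 14.4 CPM. The same ratio spanned 75.6 to 341 for Galnt11 and 45.5 to 267 for Galnt2, both lowest in knockout podocyte 2. It spanned 1.10 to 9.86 for Galnt12 and 8.10 to 45.4 for Galnt3. Between cell types, 5 of the 6 markers were lower in endothelium and 1 was higher. Those that passed an adjusted p of 0.05 in edgeR were 3 lower ones (Pdzk1, Miox and Lrp2), where 11.1% of all genes passed as lower. Galnt14, Galnt11 and Galnt3 had the same direction. The part of tubule RNA in these differences was not tested. These ratios were chosen after the levels had been seen.

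**Figure D4:**
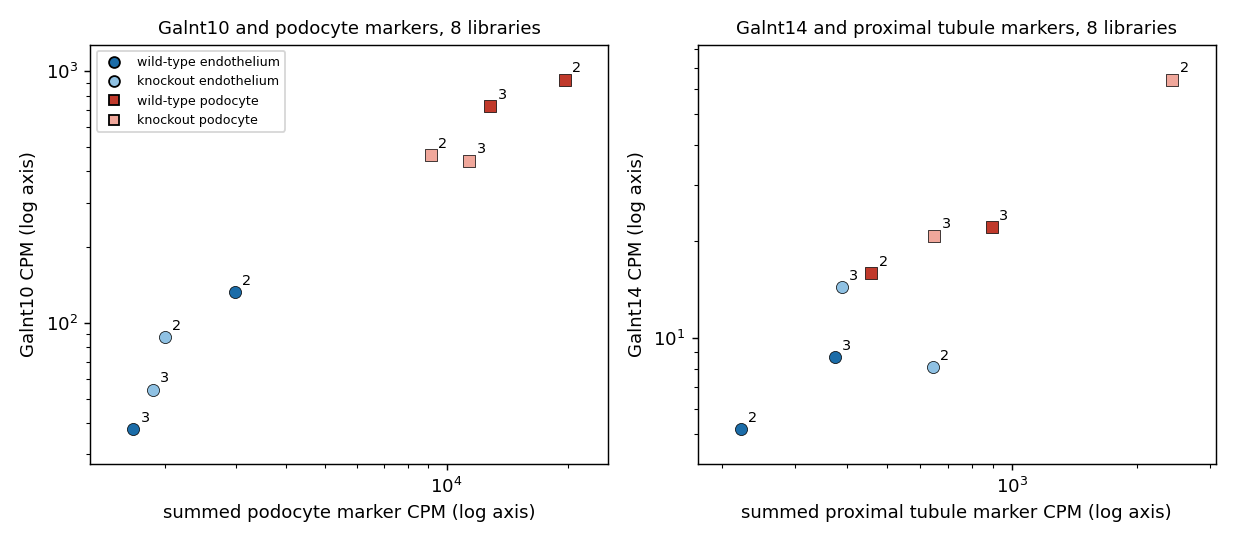
Left, Galnt10 level against the summed level of 7 podocyte markers, and right, Galnt14 level against the summed level of 6 proximal tubule markers, in CPM on log axes, 1 point per library, with the replicate number beside it. Knockout podocyte 2 stands at the top right of the Galnt14 panel, at 2435 CPM of tubule markers and 64.2 CPM of Galnt14.

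Loss of Emcn was compared within each cell type. None of the 10 GALNT genes passed in either one, where 0.00607% of all genes passed in edgeR, which is Emcn alone in each cell type. The Emcn call was lost in endothelium without any 1 of the 4 endothelial libraries, and in podocytes without either wild-type endothelial library, wild-type podocyte 2 or either knockout podocyte library. At an unadjusted p under 0.05, 1 of the 10 differed in endothelium (5.49% of all genes) and 1 in podocytes (4.43%), while DESeq2 called 10 genes in endothelium and 12 in podocytes and none of the 10 GALNT genes. The median change was -0.22 over the 10 genes in endothelium and 0.06 in podocytes, against 0.01 and 0.02 over all genes.

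In endothelium the gene with the smallest p was Galnt3, at 10.1 and 15.6 CPM in wild type and 5.22 and 6.19 CPM in knockout. The groups did not overlap, the change was -1.17 (SE 0.39, 95% interval -2.04 to -0.30), and it did not pass (unadjusted p = 0.0129, edgeR adjusted p = 0.716). It was -0.83 without wild-type endothelium 3, the library with the most Galnt3 of the endothelial ones. That library also had the most distal and collecting tubule marker RNA (14495 CPM) and the largest share of mitochondrial counts (26.2%). Of those tubule markers, 5 of 5 had a negative genotype change in endothelium (median -1.19, 0 past the threshold), and their part in the Galnt3 value was not tested. Galnt2 was also without overlap, at -0.48 (95% interval -1.15 to 0.19, edgeR adjusted p = 0.718), and 44.5% of all genes had no overlap in this comparison of 2 against 2 libraries. Galnt18, the leading endothelial gene, was at 256.8 ± 33.1 CPM in wild type and 245.2 ± 18.5 CPM in knockout (SD, n = 2). Its change of -0.07 had an interval of -0.65 to 0.52, and was 0.27 under scaling by library size only. Galnt7 was at 37.4 ± 2.91 CPM in wild type and 39.4 ± 2.15 CPM in knockout (SD, n = 2), a change of 0.08 with an interval of -0.84 to 0.99. Galnt10 had a change of -0.26 (interval -1.30 to 0.79), which was 0.90 without wild-type endothelium 2 and 0.0027 under scaling by library size only.

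In podocytes Galnt10 was at 825.3 ± 142 CPM in wild type and 452.3 ± 15.1 CPM in knockout (SD, n = 2). The genotypes did not overlap, with knockout lower, as for 16.0% of all genes, and the change of -0.87 (SE 0.47, 95% interval -1.91 to 0.17) did not pass (edgeR adjusted p = 0.978). The summed podocyte markers were likewise lower, at 12842 to 19646 CPM in wild-type and 9129 to 11399 CPM in knockout podocytes, and 7 of 7 had a negative change with 0 past the threshold. Their part in the Galnt10 difference was not tested. Galnt4 was also without overlap, at 51.3 and 42.7 CPM in wild type and 37.5 and 28.1 CPM in knockout, a change of -0.52 (interval -1.11 to 0.07, edgeR adjusted p = 0.978). Galnt12 was the 1 gene of the 10 that was higher in knockout without overlap, as 15.1% of all genes were, at 1.62 and 3.27 CPM in wild type and 5.53 and 4.13 CPM in knockout (change 0.99, interval -0.69 to 2.66, edgeR adjusted p = 0.978).

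Galnt14 had the smallest p in podocytes, with a change of 1.16 (SE 0.50, 95% interval 0.04 to 2.27, unadjusted p = 0.0430, edgeR adjusted p = 0.978). It overlapped between genotypes, and without knockout podocyte 2, the library with the most proximal tubule marker RNA, the change was 0.13. Without that library the signs of 4 other genes turned: Galnt11 went from 0.16 to -0.75, Galnt2 from 0.42 to -0.11, Galnt3 from 0.07 to -0.25 and Galnt18 from 0.05 to -0.37. The part of proximal tubule RNA in these values was not tested.

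**Figure D5:**
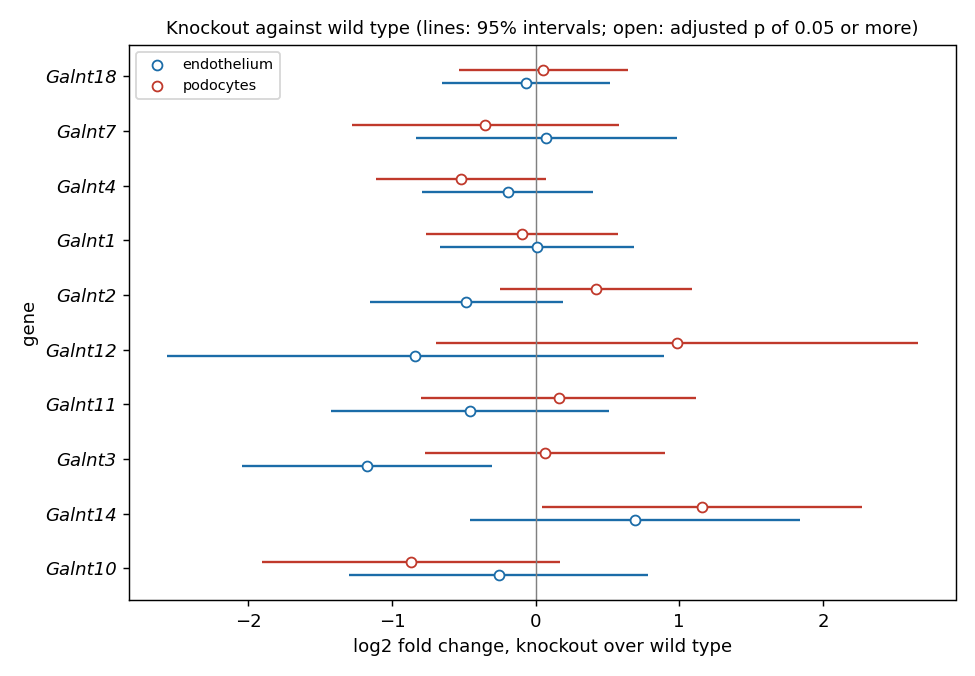
Log2 fold change of knockout over wild type for each gene in endothelium (blue) and podocytes (red), with 95% intervals. Open points mark an adjusted p of 0.05 or more, which holds for all 20 values.

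The difference between the 2 genotype effects was tested as an interaction. None of the 10 genes passed, and 0 of all genes did in edgeR (2.6% had an unadjusted p under 0.05). Galnt3 had the smallest p of the 10, with an interaction of -1.24 (95% interval -2.44 to -0.04, unadjusted p = 0.0446, edgeR adjusted p = 0.999997). Galnt2 was at -0.90 (interval -1.85 to 0.04), Galnt10 at 0.61 (-0.86 to 2.08) and Galnt18 at -0.12 (-0.95 to 0.71, and 0.10 under scaling by library size only), all on the log2 scale.

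Among the other genes of the pathway, the remaining 9 of the GALNT family were all tested and 1 passed between cell types, where 18.3% of all genes did. That was Galnt15, at 5.36 to 11.7 CPM in endothelium and 1.10 to 2.98 CPM in podocytes, with a change of 1.78 (SE 0.39, edgeR adjusted p = 0.00876). All 9 were low, and none passed by genotype. In endothelium 8 of the 9 had a positive genotype change, with a median of 0.83 against 0.01 over all genes, and 6 of the 9 had both knockout libraries above both wild-type ones, as did 24.8% of all genes. Wild-type endothelium 3 was the lowest endothelial library for 8 of these 9 genes, and the median was 0.37 without it and 1.68 without wild-type endothelium 2, a comparison chosen after seeing the data. That library also had the largest share of mitochondrial counts of all 8 (26.2%), the lowest TMM factor (0.835) and the fewest genes with a count among the endothelial ones (16799). On the second principal component it was at 84.8, against -31.7 to 7.69 for the other endothelial libraries. The part of these differences in the values of the 9 genes was not tested. Of the genes that build the core and branches, 1 of 7 was on a complete line (C1galt1c1, the chaperone of the core galactosyltransferase), with a change of -0.28 that did not pass. None of the 8 sialyltransferase genes listed was on a complete line, and they were not analysed here.

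Of the genes that supply the sugar donors, 5 of 8 were tested and 1 passed, against 18.3% of all genes. Gne, which encodes the first enzyme of sialic acid synthesis, was at 119 to 136 CPM in endothelium and 51.5 to 73.8 CPM in podocytes, a change of 0.98 (SE 0.15, edgeR adjusted p = 0.000967). Of the sialomucins that carry the glycans, 8 of 10 were tested, 2 were higher in endothelium (7.19% of all genes) and 2 in podocytes (11.1%). Emcn had a change of 5.09 and Cd34 of 3.02 (edgeR adjusted p = 1.29e-06 and 7.16e-06), while Podxl had -2.26 and Cd164 had -0.86 (edgeR adjusted p = 8.29e-05 and 0.00553). Podxl, also 1 of the podocyte markers, was at 2738 to 6298 CPM in podocytes and 753 to 1062 CPM in endothelium. By genotype, Emcn alone passed among all these lists, with -3.43 in endothelium and -3.38 in podocytes (edgeR adjusted p = 0.0205 and 0.0321).

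The genes whose pattern was most like that of Galnt18 over the 8 libraries, among 10079 with a mean of at least 5 CPM, were Igfbp5 (Pearson r of log2 CPM 0.997), Ces2e (0.991), Csf1 (0.990) and Cdc42ep2 (0.987). Igfbp5, which encodes a binding protein of insulin-like growth factors, was at 888 CPM on average in endothelium and 147 CPM in podocytes. Those most like Galnt10 were Nck2 (0.997), Rhbdl3 (0.997), Alcam (0.996) and Dpp4 (0.996). Dpp4, which encodes a membrane peptidase, was at 2014 CPM on average in podocytes and 197 CPM in endothelium. Galnt10 and Galnt18 themselves had an r of -0.93, and Galnt7 and Galnt18 of 0.91. The 8 points share 2 cell types and their libraries.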

How the data were processed

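Polyadenylated RNA was sequenced from sorted kidney cells with Illumina TruSeq libraries, per the labels' protocols. The authors deposited raw read counts per Entrez gene. In 3 of the 8 columns, gene lines cut short left empty or unreadable cells, so the unit of those deposited columns is listed as other, although every complete line held whole counts. The 5207 short lines (23.11%) were not analysed here. The submitters' processing notes name mm10 and DESeq2. The aligner, counter, annotation and use of strand are not given in the sources used here.

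Counts were analysed with edgeR 4.0.16 in R 4.3.3: filterByExpr, TMM scaling, 1 mean per group over all 8 libraries, the quasi-likelihood F test and Benjamini-Hochberg adjustment over 16477 genes at 0.05. The procedure was tested on simulated counts for the average contrast only, without the tubule RNA or the outlying library of these data. Alternatives used DESeq2 1.42.0, limma 3.58.1 (voom), other scalings and filters, a replicate block, and each library left out. Transcript lengths (median over protein-coding transcripts, GENCODE M21) matched 14125 genes, and loci and promoters came from RefSeq on GRCm38.p6. The members and lists were chosen with earlier results of these data known. All members were named, with Emcn and the genes of the pathway lists past the threshold (at most 4 per list and direction). The 4 genes most correlated with the member of smallest p on each side were also named. Of the cell type markers, only some were named.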

Additional observations from a re-analysis of the deposited data

How the results depend on the processing

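Between cell types, averaged over genotypes, Galnt10, Galnt14, Galnt7 and Galnt18 kept an adjusted p under 0.05 under other scalings and filters. They also kept it with the replicate block, in DESeq2 and in limma voom. With 1 library left out, the change was -3.56 to -2.66 for Galnt10 and -1.99 to -1.18 for Galnt14. It was 1.11 to 1.68 for Galnt7 and 1.21 to 1.58 for Galnt18. Alternatives that changed only the cut-off reused the main fit and are not counted here. The block with crossed podocyte numbers was not read for single genes. The number of the 10 GALNT genes that passed was 4 to 7 with 1 library left out in turn (12.1% to 19.2% of all genes), 1 to 3 in wild type (4.5% to 9.79%) and 1 to 6 in knockout (5.68% to 10.6%). In knockout it was 3 under scaling by library size only and 3 in a fit of the 4 libraries compared. With 1 library left out, all genes called numbered 769 to 1672 between cell types in wild type, 960 to 1809 in knockout, and 0 to 1 by genotype in endothelium and 0 to 1 in podocytes. The genotype counts were 0 in both cell types under library size only and with a mean of at least 5 CPM, and in podocytes 0 in a fit of 4 libraries and in limma voom, while the DESeq2 Wald test called 10 and 12. The cause was not tested. Of the 10 places in the order per kb, 6 to 8 were kept in wild-type endothelium and 6 to 10 in the other 3 groups with 1 library left out. With the longest transcript length or library size only, 8 to 10 were kept in both endothelial groups and 10 in both podocyte groups. A library left out leaves 1 in its group, which is assumed to vary like the others.

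Scaling by library size only moved the median of all genes by 0.17 in the average cell type contrast, 0.28 in knockout, 0.33 and 0.11 by genotype in endothelium and podocytes, and 0.21 in the interaction. Under it, values near 0 changed sign: Galnt1 0.010 and Galnt4 0.14 between cell types in knockout, Galnt4 0.11, Galnt10 0.0027 and Galnt18 0.27 by genotype in endothelium, Galnt1 0.028 in podocytes and Galnt18 0.10 in the interaction. With a mean of at least 5 CPM, Galnt4 was 0.016 in knockout and Galnt18 0.10 by genotype in endothelium, and Galnt12 was not tested. Galnt1 by genotype in endothelium was -0.044 with DESeq2 size factors, -0.044 in the DESeq2 Wald test and -0.0014 without the filter, and Galnt11 in podocytes was -0.00106 in limma voom. With 1 library left out, the ranges that crossed 0 were, between cell types in wild type, Galnt1 -0.78 to 0.22, Galnt2 -0.24 to 0.054, Galnt12 -0.42 to 0.76, and in knockout Galnt4 -0.35 to 0.071. By genotype they were in endothelium Galnt1 -0.080 to 0.081, Galnt4 -0.44 to 0.080, Galnt7 -0.010 to 0.15, Galnt10 -0.90 to 0.90, Galnt18 -0.20 to 0.063, and in podocytes Galnt1 -0.51 to 0.50, Galnt2 -0.11 to 0.80, Galnt3 -0.25 to 0.48, Galnt7 -1.04 to 0.31, Galnt11 -0.75 to 0.71, Galnt18 -0.37 to 0.38. In the interaction they were Galnt1 -0.47 to 0.51, Galnt7 -0.25 to 1.10, Galnt10 -0.031 to 1.77, Galnt11 -1.18 to 0.29, Galnt14 -1.07 to 0.56, Galnt18 -0.45 to 0.29.

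With the replicate number as a block, 7 of the 10 passed on average (20.8% of all genes) and 7 in knockout (13.6%), where Galnt2 was added on average (-0.53, edgeR adjusted p = 0.0447) and Galnt2 and Galnt11 in knockout. Galnt11 in podocytes was then -0.012 by genotype. Deviations of same-numbered libraries correlated at -0.13 between wild-type endothelium and podocytes, 0.11 between knockout endothelium and podocytes, 0.19 between the endothelial genotypes and 0.16 between the podocyte genotypes, so the numbers were not taken to pair the libraries. In all 4 groups, however, replicate 3 had the larger mitochondrial share (16.9% to 26.2%, against 10.1% to 13.3% in replicate 2). It also had the higher sum of distal and collecting tubule markers, and replicate 2 had the higher Galnt10, Galnt4 and Galnt2. For Galnt2 the difference was 1.02 to 1.89 times. How many of all genes agreed in this way over the groups was not counted. A block with the podocyte numbers crossed, chosen after seeing the data, called 5 on average (17.7% of all genes) and 0 genes by genotype in either cell type.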
